A study of Mus musculus with 16 samples.

Results

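A set of 9 genes of plasma triglyceride clearance was followed in white fat of obese mice: Lpl, Lmf1, Gpihbp1, Angptl4, Angptl2, Apoe, Apoc1, Vldlr and Lrp1. They were chosen by name, and every probe that the array annotation gives to one of these symbols was used. Of the 9 genes, 8 had at least 1 probe, with 13 probes in all out of 25697 on the array, and all 13 passed the filter on detection. No probe is annotated to Angptl2, so this gene is described from the authors' deposited table only. The array names 16593 genes, of which 9543 were tested.

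Lipoprotein lipase, the product of Lpl, splits the triglycerides of chylomicrons and very low density lipoproteins on the capillary wall, so that fat cells can take up the fatty acids. LMF1 is the endoplasmic reticulum factor that lets the enzyme fold, GPIHBP1 carries it across the endothelium and holds it in the capillary lumen, and ANGPTL4, secreted by adipocytes, inactivates it. APOE on the particle surface is a ligand of the receptors VLDLR and LRP1, and APOC1 hinders both the lipase and this uptake. In mouse fat, Lpl, Gpihbp1 and Angptl4 are known targets of PPARG, the nuclear receptor of adipocytes that thiazolidinediones activate.

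The study compared epididymal white adipose tissue of wild-type (WT) mice and FGF21-KO mice, both on a mixed c57b6/sv129 background and 4 to 5 months old. All were made obese by 10 weeks of high-fat diet. Rosiglitazone, a thiazolidinedione, was given at 10 mg/kg for the last 2 weeks, and the other mice received vehicle. This gave 4 groups, called here WT vehicle and WT rosiglitazone for the first genotype and Fgf21-KO vehicle and Fgf21-KO rosiglitazone for the second. Each group had 2 pools of 2 mice, and the RNA of each pool was hybridised to 2 arrays, 16 in all. The pool was the replicate (n = 2 per group), so the spread between single mice is not seen, and the high-fat diet is shared by all groups. FGF21 is a hormone of liver and fat, and the title of the series places it in the action of PPARG and of thiazolidinediones.

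Between 12234 and 13096 probes were detected per array, with median signals of 145 to 192. Fgf21 itself was detected on 4 of 4 arrays in each WT group and on 1 of 4 in each Fgf21-KO group. Its log2 difference, Fgf21-KO minus WT over both treatments, was -2.34 (SE 0.27, limma adjusted p = 0.0681), and the genotypes did not overlap. It is not known here whether the deletion removes the stretch that its probe reads. A pair of pools stood apart the most, as judged against the mean of the other 7 pools. In WT rosiglitazone replicate 1, all 7 tested smooth muscle markers lay above the others, by a median of 2.38 (log2), as did all 6 epithelium markers, by 2.01, and the other WT rosiglitazone pool had 6 of 6 epithelium markers higher, by 0.83. In Fgf21-KO vehicle replicate 2, all 8 tested liver markers lay above the others, by a median of 3.59 (summed level 15.9, elsewhere 13.3 to 14.3), while the probes of Alb, Fgb and Tat were detected on 0 of 16 arrays. The median over the 8 adipocyte markers tested stayed between -0.09 and 0.10 in every pool, while single markers ranged more widely, Retn from 6.89 to 7.84. Other pools differed in markers too. In Fgf21-KO rosiglitazone replicate 2, 0 of 7 mesothelium markers lay above the others, with a median of -1.19. Apart from Fgf21-KO vehicle replicate 2, the liver median ran from -1.89 in that treated pool to 1.22 in WT vehicle replicate 2. The pair that stood apart the most was kept, and values without these 2 pools are given where results rest on them.

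The comparisons asked whether rosiglitazone changed these genes in each genotype, whether loss of Fgf21 changed them under each treatment, and whether the drug response differed between genotypes. By limma, 0 of the 8 genes passed an adjusted p of 0.05 in any of the 7 comparisons fitted. Few other probes did. For rosiglitazone in WT, rosiglitazone in Fgf21-KO, genotype under vehicle, genotype under rosiglitazone, the interaction and rosiglitazone averaged over genotypes, 0 of 13759 probes passed (0%), and for genotype averaged over treatments 3 passed (0.0218%). At an unadjusted p under 0.05, 1 of the 8 genes was found for rosiglitazone in Fgf21-KO, against 5.64% of all probes, and it was Gpihbp1. It was found again for rosiglitazone averaged over genotypes (8.75% of all probes). None of the 8 was found for rosiglitazone in WT (8.31% of all probes), genotype under vehicle (4.77%), genotype under rosiglitazone (15.8%), genotype averaged over treatments (14%) or the interaction (4.95%). The p-values rest on the spread between pools, which limma draws for each probe toward a variance shared by all probes. In bulk tissue, fewer cells of a type and less RNA per cell cannot be told apart.

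As a group the genes split in direction. Rosiglitazone in WT gave 5 higher and 3 lower values with a median log2 difference of 0.068, beside 0.015 over all probes. In Fgf21-KO 4 were higher and 4 lower (median 0.031, beside 0.0037). Under vehicle 3 were higher and 5 lower in Fgf21-KO than in WT (median -0.019, beside -0.0054), and under rosiglitazone 4 were higher and 4 lower (median -0.022, beside -0.0085). The pools of the groups compared did not overlap at the lead probe (the brightest of a gene) for 2, 4, 2 and 5 of the 8 genes in these comparisons, where 34.9%, 44%, 42.9% and 46.3% of all probes did the same. With 2 pools on each side, such separation is frequent on this array. With 4 pools on each side, it held at the lead probe for 1 gene, Lmf1, for rosiglitazone averaged over genotypes (4.62% of all probes) and for 0 for genotype averaged over treatments (9.97%). Without WT rosiglitazone replicate 2, which leaves the pool with high smooth muscle markers alone in its group, 1 of the 8 genes, Lmf1, passed for rosiglitazone in WT, as did 2697 probes in all; no other pool, left out singly, brought a member past the threshold.

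**Figure D1:**
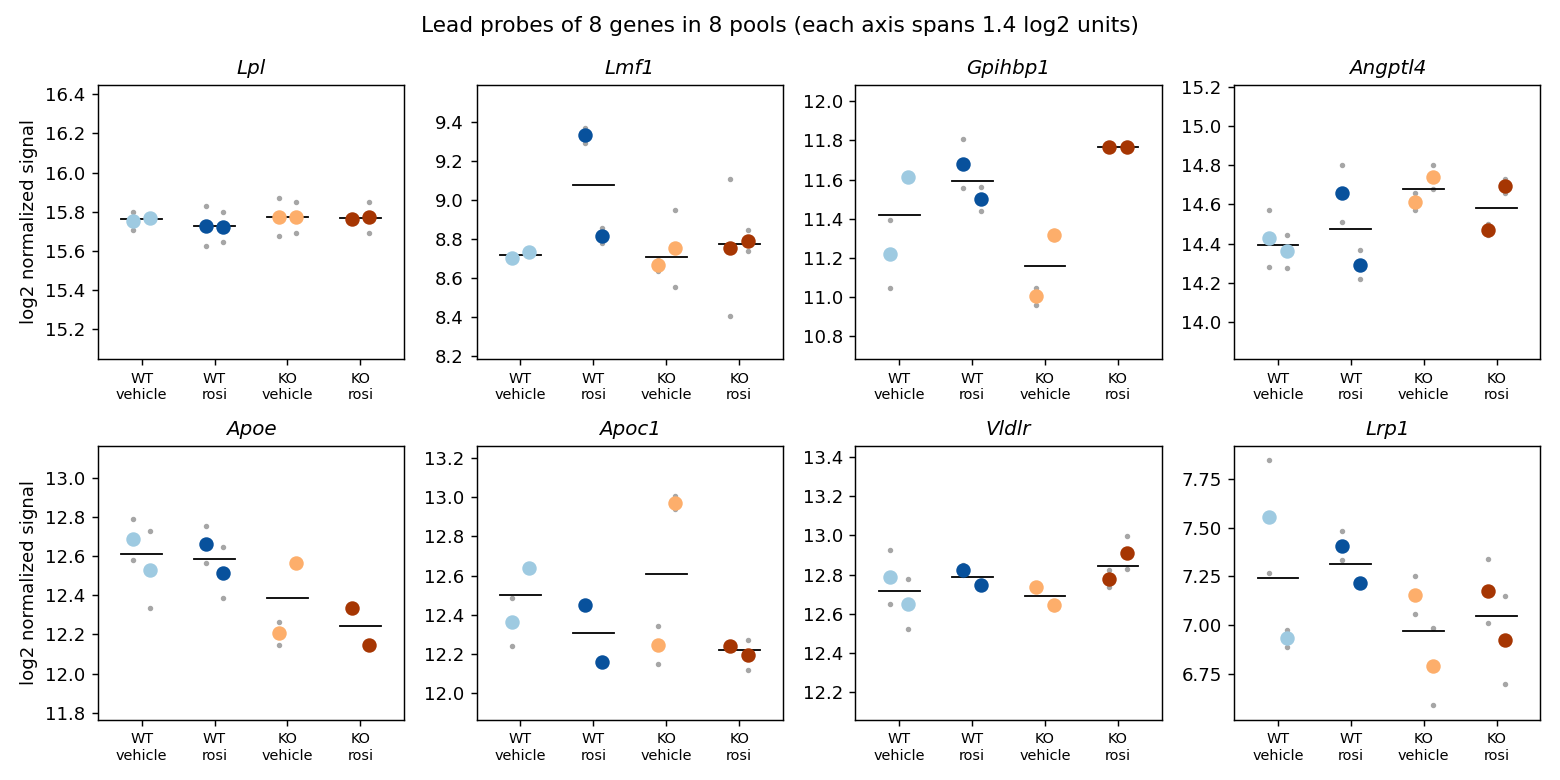
Normalized log2 signal of the lead probe (the brightest of a gene) of 8 genes, in 4 groups of 2 pools. Large points are pools, small grey points the 2 arrays of each pool, and bars the group means; Gpihbp1 is highest in the Fgf21-KO rosiglitazone pools and Lpl is level across all 8 pools.

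Lpl was among the brightest probes of every array (ILMN_2692723), ranking between 5th and 19th of 25697. Its signals before normalization ran from 49144 to 64487 over the 16 arrays, which is 77.5% to 94.9% of the brightest signal of the same array. On the normalized log2 scale the WT pools read 15.75 and 15.77 with vehicle, then 15.73 and 15.72 with rosiglitazone. The Fgf21-KO pools read 15.77 and 15.77 with vehicle, then 15.76 and 15.77 with the drug. The transcript was thus near the top of the signal range in every group, and the groups differed by less than the repeat arrays of 1 pool, whose median gap was 0.16.

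Rosiglitazone minus vehicle was -0.037 for Lpl in WT (95% interval -0.32 to 0.24) and -0.0037 in Fgf21-KO (-0.28 to 0.28). Fgf21-KO minus WT was 0.0096 under vehicle (-0.27 to 0.29) and 0.043 under rosiglitazone (-0.24 to 0.32). All 4 comparisons had a limma adjusted p of 0.858 or more. The SD of the Lpl pools within a group was at most 0.011, while the SE of each difference was 0.12. These intervals thus reflect mostly the variance that limma shares over all probes, not the spread of the Lpl pools. Quantile normalization gives nearly the same value to probes of nearly the same top rank, so small changes of so bright a probe are not resolved here. The files hold no flag for saturation.

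The 5 genes whose 8 pool values followed those of Lpl most closely were Rap1gap2 (Pearson r = 0.966 over 8 pools), Fam220a (0.955), Gab3 (0.948), Mocs2 (0.948) and Tcaf1 (0.934), out of 9611 probes compared. The SD of Lpl over the pools was 0.021, so this likeness concerns very small deviations, and the pools share groups and arrays.

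Lmf1, the folding factor, was of moderate level (ILMN_2655144). The WT pools stood at 8.70 and 8.73 with vehicle and at 9.33 and 8.82 with rosiglitazone. The Fgf21-KO pools stood at 8.66 and 8.75 with vehicle and at 8.76 and 8.79 with rosiglitazone. The other 7 pools thus lay within a narrow band, and 1, WT rosiglitazone replicate 1, stood above it. That pool is the one with the high smooth muscle and epithelium markers.

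The rosiglitazone difference of Lmf1 in WT was 0.36 (SE 0.18, limma adjusted p = 0.587). It was 0.10 without WT rosiglitazone replicate 1 and 0.61 without replicate 2 of that group. A test in the latter fit assumes that the single pool left varies as the other groups do. The part of the smooth muscle and epithelium RNA in this difference was not tested. In Fgf21-KO the difference was 0.065 (SE 0.18). Averaged over genotypes it was 0.21, with SE 0.13 and adjusted p 0.675 by limma. Every treated pool lay above every untreated one, narrowly, since the lowest treated pool read 8.755 and the highest untreated one 8.753. The repeat arrays of these pools lay much further apart. They read 8.41 and 9.10 in the former, Fgf21-KO rosiglitazone replicate 1, and 8.95 and 8.56 in the latter, Fgf21-KO vehicle replicate 2. The average ranged from 0.082 to 0.34 when the WT rosiglitazone pools were left out singly. Genotype differences were -0.0092 under vehicle and -0.30 under rosiglitazone (SE 0.18 each). The latter was -0.044 without the high WT pool and -0.56 without the other WT rosiglitazone pool.

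Gpihbp1, the endothelial carrier of the lipase, had the largest drug difference among the 8 lead probes (ILMN_1217969). The vehicle pools of Fgf21-KO read 11.005 and 11.32, and its rosiglitazone pools 11.77 and 11.77. The vehicle pools of WT read 11.22 and 11.61, and its rosiglitazone pools 11.68 and 11.50. On this normalized scale both treated Fgf21-KO pools thus lay above every other pool, while the WT groups overlapped. Before normalization the treated WT pools were the higher ones, at 4437 and 3392 against 3116 and 3076 in treated Fgf21-KO. With arrays centred on their medians, Fgf21-KO minus WT under rosiglitazone was -0.092, beside a median of -0.17 over all probes.

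The drug difference of Gpihbp1 in Fgf21-KO was 0.61 (SE 0.19, 95% interval 0.16 to 1.05), a 1.52-fold level. Its unadjusted limma p was 0.0148, rank 249 of 13759 probes, and its adjusted p was 0.815. In WT the difference was 0.17 (SE 0.19, interval -0.27 to 0.62). The interaction, 0.43 (SE 0.26, interval -0.20 to 1.06, adjusted p = 0.827), did not pass, so a different response of the genotypes was not shown. Averaged over genotypes the drug difference was 0.39 (SE 0.13, unadjusted p = 0.022, adjusted p = 0.519), where 8.75% of all probes had an unadjusted p under 0.05.

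Genotype differences of Gpihbp1 were -0.26 under vehicle and 0.18 under rosiglitazone (SE 0.19 each). The former was -0.45 without WT vehicle replicate 1 and -0.061 without WT vehicle replicate 2, and the latter ranged from 0.085 to 0.27 when each pool was left out in turn. The drug difference likewise ranged from 0.45 to 0.76 in Fgf21-KO and from -0.022 to 0.37 in WT. At the lower end in Fgf21-KO, where the lower vehicle pool was out, its unadjusted limma p was 0.0994. The 9 endothelial markers tested gave a median rosiglitazone difference of 0.027 in Fgf21-KO, with 7 higher and 2 lower, and of -0.025 in WT. The median genotype difference of these markers was 0.071 under vehicle (7 higher, 2 lower) and 0.25 under rosiglitazone (8 higher, 1 lower). Their summed level was 14.88 and 14.88 in the Fgf21-KO vehicle pools, 14.92 and 14.94 in the treated ones, and 14.75 to 14.92 in WT; their part in the result was not tested.

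**Figure D2:**
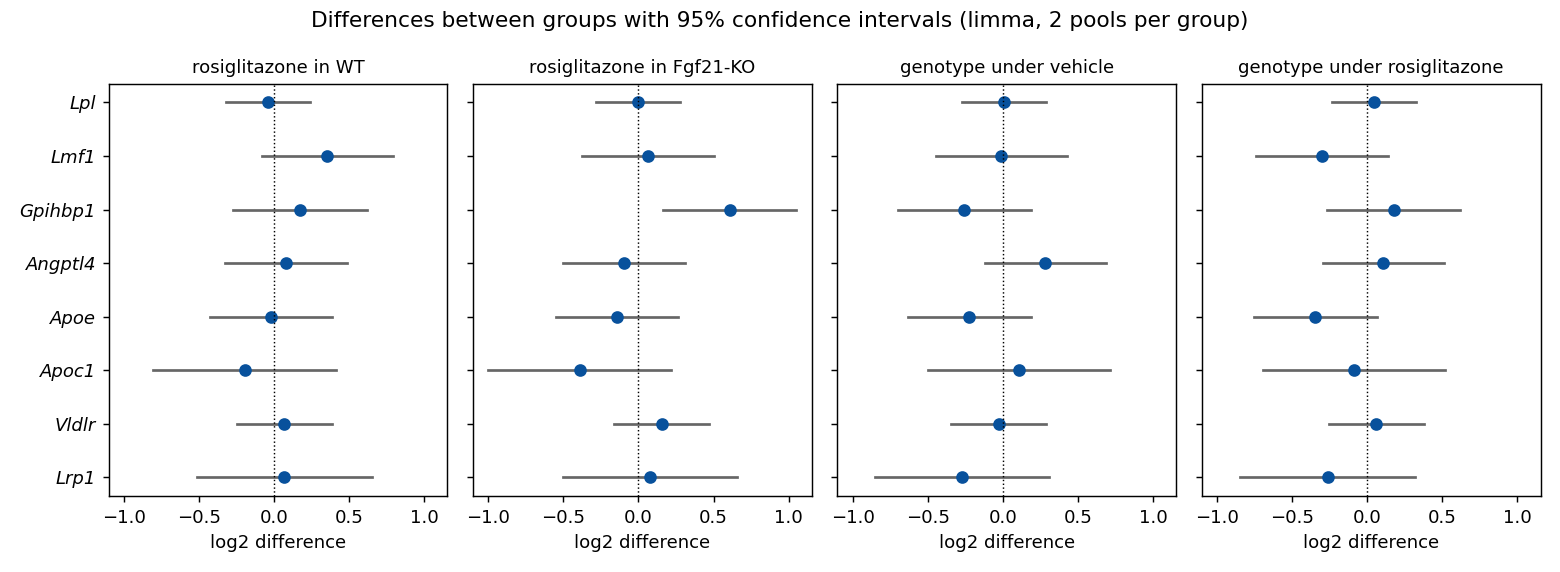
Log2 differences of 8 genes in the 4 comparisons of groups (points), with 95% confidence intervals (bars) from limma; positive values are higher with rosiglitazone or in Fgf21-KO. The interval of Gpihbp1 for rosiglitazone in Fgf21-KO, 0.16 to 1.05, lies wholly above 0.

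Angptl4, the inhibitor of the lipase, was also a bright probe (ILMN_2759365), with signals of 19328 to 35164 and ranks between 65 and 126. The WT pools gave 14.43 and 14.36 with vehicle, and 14.66 and 14.29 with the drug. The Fgf21-KO pools gave 14.61 and 14.74 with vehicle, and 14.47 and 14.69 with the drug. Both untreated Fgf21-KO pools lay above both untreated WT pools, and within each genotype the treated and untreated pools overlapped.

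Rosiglitazone minus vehicle was 0.080 for Angptl4 in WT (95% interval -0.32 to 0.48) and -0.096 in Fgf21-KO (-0.50 to 0.31). The order of the group means was Fgf21-KO vehicle, Fgf21-KO rosiglitazone, WT rosiglitazone, WT vehicle. The ends of that order differed by 0.28 (SE 0.17, limma adjusted p close to 1), and no neighbours in it were separated beyond the spread of their pools. Under rosiglitazone the genotypes differed by 0.11 (SE 0.17), or by -0.074 without WT rosiglitazone replicate 2. Without WT rosiglitazone replicate 1 the WT drug difference was -0.10. The genes nearest to Angptl4 in their 8 pool values were Ear10 (Pearson r = 0.930 over 8 pools), Ttc39c (0.912), Cdc5l (0.911), Lancl1 (0.907) and Cish (0.906).

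Apoe, the ligand of the uptake receptors, had lower group means in Fgf21-KO fat under both treatments (ILMN_1216042), without passing the test. With vehicle, the values were 12.69 and 12.53 for WT against 12.21 and 12.57 for Fgf21-KO. With rosiglitazone, they were 12.66 and 12.52 for WT against 12.34 and 12.15 for Fgf21-KO. Of the 4 Fgf21-KO pools, 3 lay below every WT pool, and the exception was Fgf21-KO vehicle replicate 2, the pool with the high liver markers.

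Fgf21-KO minus WT was -0.22 for Apoe under vehicle (SE 0.17), with -0.40 when Fgf21-KO vehicle replicate 2 was left out and -0.043 when replicate 1 was. It was -0.35 under rosiglitazone (SE 0.17, limma adjusted p = 0.354). Averaged over treatments it was -0.28 (SE 0.12, 95% interval -0.57 to 0.0040, unadjusted p = 0.0524, adjusted p = 0.359), and without Fgf21-KO vehicle replicate 2 it was -0.37 (unadjusted p = 0.0275, adjusted p = 0.471) and without replicate 1 of that group -0.19. Drug differences were -0.021 in WT and -0.14 in Fgf21-KO, the latter 0.036 without Fgf21-KO vehicle replicate 2 and -0.32 without replicate 1. Apoe is also made by macrophages, and the 8 macrophage markers tested had median genotype differences of -0.099 under vehicle and 0.16 under rosiglitazone. The 8 liver markers tested had median genotype differences of 1.04 and -1.39. The part of either marker list in the result was not tested.

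The authors' deposited table, which holds ratios of group means, marks Apoe as changed by genotype under vehicle, with a ratio of 0.724 and p = 2.03e-07. The means behind it are those of the signals before normalization, and over the 2661 features of that table the median ratio of Fgf21-KO to WT is 0.771. Over all probes on the arrays the ratio of signals before normalization had a median of 0.828. After normalization the Fgf21-KO level of Apoe was 0.857-fold that of WT.

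Apoc1 was measured by a pair of probes, which followed each other over the pools (r = 0.922 over 8 pools). The brighter (ILMN_2599794) gave 12.36 and 12.64 for WT vehicle, 12.45 and 12.16 for WT rosiglitazone, 12.25 and 12.97 for Fgf21-KO vehicle, and 12.24 and 12.19 for Fgf21-KO rosiglitazone. The other (ILMN_1228469) read 11.70 and 11.67, 11.61 and 11.49, 11.37 and 12.32, then 11.53 and 11.42, with the groups in that same order. At both probes the highest of the 8 pools was Fgf21-KO vehicle replicate 2, the pool with the high liver markers. APOC1 is made mainly by the liver and by macrophages.

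**Figure D3:**
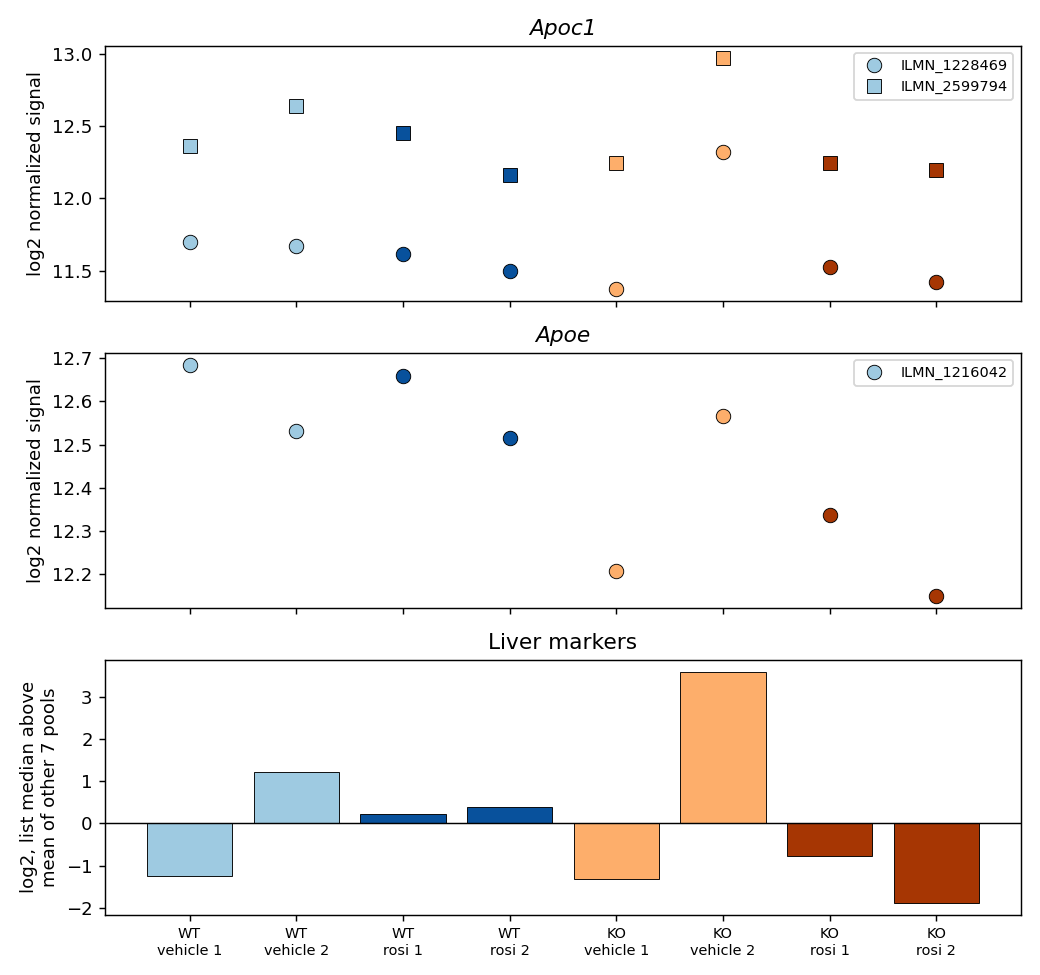
Normalized log2 signal of the Apoc1 and Apoe probes in each of 8 pools, above the median excess of 8 liver markers over the mean of the other 7 pools (log2). Apoc1 and the liver markers (3.59 above the others) both peak in Fgf21-KO vehicle replicate 2.

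Rosiglitazone minus vehicle was -0.39 in Fgf21-KO at the brighter Apoc1 probe (SE 0.25, limma adjusted p = 0.968) and -0.37 at the other (SE 0.29). Without Fgf21-KO vehicle replicate 2 these were -0.028 (SE 0.22) and 0.10 (SE 0.18). In WT the differences were -0.20 (SE 0.25) and -0.13 (SE 0.29), the first ranging from -0.34 to -0.052 when the treated pools were left out singly. The genotype difference under vehicle was 0.11 at the brighter probe with all pools and -0.25 without that pool, so its sign rested on it. Under rosiglitazone the genotypes differed by -0.087 (SE 0.25). In the authors' deposited table, both Apoc1 features are marked for rosiglitazone in Fgf21-KO, with ratios of 0.724 (p = 1.74e-07) and 0.725 (p = 1.79e-07) and with each array counted singly. That table marks 309 of its 2661 features (11.6%) in this comparison, and the median ratio over them all is 0.927. These are ratios of signals before normalization, whose median over all probes on the arrays was 1.06. The liver markers differed in the same comparison by a median of -2.13, with 8 of 8 lower. The 8 macrophage markers tested differed by a median of -0.083, with 3 higher and 5 lower. The part of either marker list in the Apoc1 values was not tested.

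Among the receptors, Vldlr was bright at 3 of its 5 probes and dim at the other 2. At the lead probe (ILMN_2796472) the WT values were 12.79 and 12.65 with vehicle, and 12.82 and 12.75 with rosiglitazone. The Fgf21-KO values were 12.74 and 12.64 with vehicle, and 12.78 and 12.91 with rosiglitazone. Its groups overlapped except for rosiglitazone in Fgf21-KO, where the difference was 0.16 (SE 0.13). The other differences were 0.068 for rosiglitazone in WT, -0.028 for genotype under vehicle and 0.060 under rosiglitazone.

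The other bright probes of Vldlr, ILMN_1218264 and ILMN_2515601, followed each other closely (r = 0.958 over 8 pools) and the lead probe less so (0.566 and 0.467). At ILMN_1218264 the WT pools lay between 11.93 and 12.05 and the Fgf21-KO pools between 12.09 and 12.46. At ILMN_2515601 the WT pools lay between 12.24 and 12.44 and the Fgf21-KO pools between 12.51 and 12.80. Every Fgf21-KO pool was above every WT pool at both, as was so in the same direction for 4.56% of all probes. The averaged genotype differences were 0.23 (SE 0.11, limma adjusted p = 0.384) and 0.22 (SE 0.11, adjusted p = 0.395), against 0.016 (SE 0.094) at the lead probe, where the groups overlapped. With arrays centred on their medians, which moved the median of all probes to -0.11 in this comparison, they lay 0.18 and 0.18 above that median, and the lead probe lay at -0.026 from it. When each pool was left out in turn they ranged from 0.16 to 0.30 and from 0.15 to 0.28.

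The dim probes of Vldlr, ILMN_1230923 and ILMN_2458671, were detected on 14 and 11 of the 16 arrays. Both were lowest in WT rosiglitazone replicate 1, at 5.33 and 4.81, against 6.54 to 7.12 and 5.61 to 6.62 in the other pools. The median of all probes was 5.59. Rosiglitazone differences in WT were -0.72 (SE 0.43) and -1.07 (SE 0.39, limma adjusted p = 0.571) at these probes, where the bright ones gave 0.068, -0.029 and -0.063. Without that pool they were 0.018 (SE 0.17) and -0.55 (SE 0.33).

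**Figure D4:**
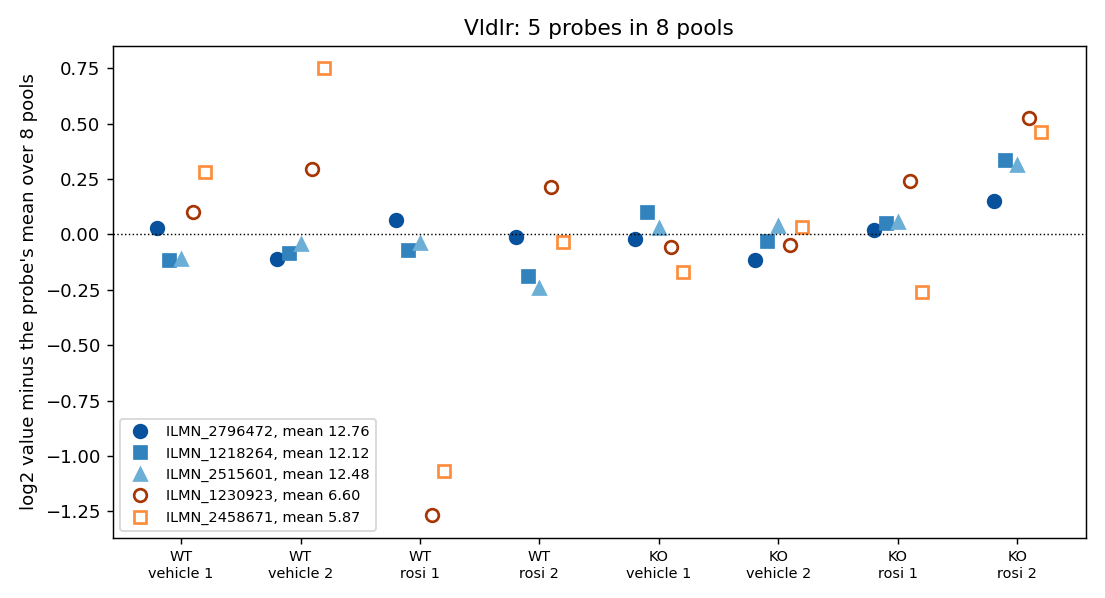
Log2 value of each of the 5 Vldlr probes minus its own mean over the 8 pools, by pool. Filled symbols are the 3 bright probes (means 12.12 to 12.76) and open symbols the 2 dim ones (6.60 and 5.87), which are low in WT rosiglitazone replicate 1.

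Vldlr has a pair of promoter windows in the RefSeq table (build GRCm38.p6). All 5 of its probes are annotated to 1 transcript, and the windows were not set against the differences between probes. The windows are printed because the drug acts through a nuclear receptor, with 1 window of Apoe beside them. Each shows the 250 bases before an annotated start. The table also holds Lmf1, Angptl2, Lrp1 and 3 windows of Apoe, so that 5 of the 9 genes matched with 8 windows. Capitals mark matches, on either strand, to CCAAT and GGGCGG (the GC box) in the second line and to TATAAA in the third; the first has none of the 5 motifs that capitals were set for.
Vldlr, upstream start, chr19:27216234-27216483, plus strand: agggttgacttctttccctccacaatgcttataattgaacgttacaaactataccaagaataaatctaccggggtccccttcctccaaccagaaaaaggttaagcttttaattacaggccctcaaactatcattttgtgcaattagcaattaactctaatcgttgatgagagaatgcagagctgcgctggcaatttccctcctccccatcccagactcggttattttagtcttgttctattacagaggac
Vldlr, downstream start, chr19:27216770-27217019, plus strand: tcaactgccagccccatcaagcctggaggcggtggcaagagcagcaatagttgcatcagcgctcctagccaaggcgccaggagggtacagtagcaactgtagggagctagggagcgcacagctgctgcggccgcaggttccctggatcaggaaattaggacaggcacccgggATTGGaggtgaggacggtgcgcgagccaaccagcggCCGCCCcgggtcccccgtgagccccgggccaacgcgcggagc
Apoe, middle of its 3 windows, chr7:19698622-19698871, minus strand: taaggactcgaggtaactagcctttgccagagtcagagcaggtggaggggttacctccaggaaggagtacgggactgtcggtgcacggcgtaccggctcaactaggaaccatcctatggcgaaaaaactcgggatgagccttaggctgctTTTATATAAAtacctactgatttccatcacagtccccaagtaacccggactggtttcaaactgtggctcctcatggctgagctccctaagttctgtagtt

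The nuclear receptor direct repeat, which is a tandem pair of AGGTCA with 1 base between and is bound by PPARG with its partner RXR, matched in 0 of the 8 windows, and in 0.0335% of all 32851 windows of this length. Its half-site AGGTCA, which the repeat contains, also matched in 0 of 8, against 14% of all windows. GGGCGG was present in 4 of 8 (32.7% of all), CCAAT in 1 of 8 (33.8% of all) and TATAAA in 1 of 8 (12.4% of all). In the Apoe window the TATAAA matches of the 2 strands overlap. Another 7 motifs were searched, 12 in all: the same repeat with 4 bases between (0.0152% of all windows), the sterol element TCACNCCAC (1.05%), the E-box CACGTG (6.02%), the forkhead site TGTTTAC (3.17%), the CEBP site TTGCGCAA (0.164%) and the PU.1 site GAGGAAGT (2.44%) matched in 0 of 8, and the STAT site TTCNNNGAA (7.02%) in 1 of 8, that of Lrp1. These are letter matches in this window and no more. Lpl, Gpihbp1 and Angptl4, named above as targets of PPARG, and Apoc1 had no window and were not searched. With the direct repeat in only 0.0335% of all windows, 0 of 8 does not tell the genes searched from others.

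Lrp1, the large endocytic receptor, was dim at its only probe (ILMN_1237723), although detected on 16 of 16 arrays. The untreated pools gave 7.55 and 6.93 (WT) against 7.15 and 6.79 (Fgf21-KO). The treated pools gave 7.41 and 7.22 (WT) against 7.17 and 6.92 (Fgf21-KO). The SD within WT vehicle (n = 2) was 0.44, larger than any difference between groups. It was 0.26 in Fgf21-KO vehicle, 0.13 in WT rosiglitazone and 0.18 in Fgf21-KO rosiglitazone. Under rosiglitazone both Fgf21-KO pools lay below both WT pools, in a comparison where 46.3% of all probes did not overlap. Genotype differences were -0.27 under vehicle and -0.26 under rosiglitazone (SE 0.24 each), and drug differences were 0.069 in WT and 0.076 in Fgf21-KO.

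Angptl2, a secreted angiopoietin-like protein made by fat, appears in the authors' deposited table with mean signals of 901 in WT vehicle and 725 in Fgf21-KO vehicle. The authors' deposited table gives ratios of 0.905 for rosiglitazone in WT (p = 0.0988), 0.874 in Fgf21-KO (p = 0.0183) and 0.805 for Fgf21-KO against WT under vehicle (p = 0.000403). None is marked there as past the Bonferroni threshold. The last ratio lies above the median of 0.771 over all features of that table. It lies below the median of 0.828 for signals before normalization over all probes on the arrays.

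Beyond these 9 genes, a list of 48 other genes of lipoprotein handling was followed (angiopoietin-like proteins, lipases, apolipoproteins, receptors, proprotein convertases, transfer proteins and heparan sulfate proteoglycans). The array names 38 of them and 33 were tested. By limma 0 passed in either direction in any of the 4 comparisons of groups, where 3, 5, 3 and 7 of the 33 had an unadjusted p under 0.05, beside 8.31%, 5.64%, 4.77% and 15.8% of all probes. For rosiglitazone in WT 20 were higher and 13 lower (median 0.13), and in Fgf21-KO 10 were higher and 23 lower (median -0.14). Under vehicle 21 were higher in Fgf21-KO and 12 lower (median 0.15), and under rosiglitazone 11 were higher and 22 lower (median -0.075). Apoa1, Apoa2 and Apoh of this list are also among the liver markers, and Lipe and Pnpla2 among the adipocyte markers.

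Among the 33 genes, those detected on all 16 arrays are described here by smallest p. For rosiglitazone in WT these were Lipe, the hormone-sensitive lipase of adipocytes, Sorl1, a sorting receptor, and Angptl1. Lipe read 11.76 and 11.66 in the vehicle pools and 11.11 and 11.28 in the treated ones, a difference of -0.52 (SE 0.15, limma adjusted p = 0.548). Sorl1 read 7.52 and 7.44 under vehicle and 8.43 and 7.72 under rosiglitazone in WT, and in Fgf21-KO 8.215 and 8.001 under vehicle and 7.51 and 7.31 under rosiglitazone. The drug differences of Sorl1 were thus 0.59 in WT and -0.70 in Fgf21-KO (SE 0.24 each), with an interaction of -1.29 (SE 0.34, unadjusted p = 0.0074, adjusted p = 0.827). Without WT rosiglitazone replicate 1 its difference in WT was 0.23, and without replicate 2 it was 0.95. Without that same replicate 2 Lipe was at -0.61. Angptl1 stood at 0.29 (SE 0.15) in WT, or from 0.14 to 0.44 when the vehicle pools were left out singly.

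In Fgf21-KO under rosiglitazone, Sdc4, a heparan sulfate proteoglycan, had a difference of -0.58 (SE 0.19, limma adjusted p = 0.828) and Scarb1, the high density lipoprotein receptor, one of 0.60 (SE 0.22, adjusted p = 0.880). Scarb1 read 7.003 and 7.092 in the vehicle pools and 7.67 and 7.61 in the treated ones. Between genotypes under vehicle, Angptl1 was at 0.83 (SE 0.15, adjusted p = 0.480), Sorl1 at 0.63 (SE 0.24) and Angptl8, which acts on the lipase together with other angiopoietin-like proteins, at 0.70 (SE 0.36). Angptl8 was at 0.42 without Fgf21-KO vehicle replicate 1 and at 0.98 without replicate 2. The Angptl1 pools read 6.76 and 7.06 (WT) against 7.79 and 7.69 (Fgf21-KO), without overlap. Between genotypes under rosiglitazone, Pltp, the phospholipid transfer protein, was at 0.49 (SE 0.13, adjusted p = 0.212), Scarb1 at 0.73 (SE 0.22) and Sdc4 at -0.60 (SE 0.19). All 3 passed when the 16 arrays were fitted with the pool as a random block, with limma adjusted p of 0.0369 for Pltp, 0.0410 for Scarb1 and 0.0356 for Sdc4. That fit takes the 2 arrays of a pool as separate observations. In it 654 of 13759 probes passed for this comparison, against 0 in the fit on pools. Leaving out WT rosiglitazone replicate 2 leaves the pool with high smooth muscle markers alone in its group. Pltp was then at 0.53, Scarb1 at 0.93 and Sdc4 at -0.39. Pltp read 12.90 and 12.99 in the treated WT pools and 13.35 and 13.51 in the treated Fgf21-KO pools.

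Lrp4, a receptor of the low density lipoprotein receptor family, was singled out after its values were seen, since it had the smallest p of the 33 genes in 4 of the 7 comparisons but was detected on only 9 of 16 arrays (ILMN_1244134). The WT pools read 5.48 and 5.46 with vehicle and 6.60 and 6.27 with rosiglitazone. The Fgf21-KO pools read 5.69 and 5.67 with vehicle and 5.72 and 5.54 with rosiglitazone. Both treated WT pools thus lay above all others, and the median of all probes was 5.59. The drug difference in WT was 0.97 (SE 0.16, unadjusted p = 0.00052, limma adjusted p = 0.299), the genotype difference under rosiglitazone -0.80 (SE 0.16, adjusted p = 0.144) and the interaction -1.01 (SE 0.22, adjusted p = 0.827). Without WT rosiglitazone replicate 1 these were 0.80, -0.64 and -0.85. Without replicate 2 of that group they were 1.13, -0.97 and -1.18. Mylip, a ligase that marks receptors of this family for breakdown, was detected on 4 of 16 arrays, with drug differences of -0.48 in WT and 0.48 in Fgf21-KO (SE 0.20 each, adjusted p = 0.587 and 0.885).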

How the data were processed

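Biotinylated cRNA was hybridised to Illumina bead arrays. Per the file headers, the deposited non-normalized table holds, for each probe, a mean signal intensity (linear), its standard error, a count of beads and a detection p-value. The authors' deposited normalized table holds intensities scaled by a method not given in the sources used here, and the series matrix repeats them (largest difference 0). The authors' deposited statistics table holds mean intensity per group, the ratio of group means and a p-value, from VAMPIRE with a Bonferroni threshold over all arrays of a group, per the file headers. The 48 columns not used are the bead counts, errors and detection p-values repeated in the normalized table.

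In R 4.3.3 with limma 3.58.1, intensities went through nec (normexp by detection p-value, offset of 16) and quantile normalization; log2 values of each pool's 2 arrays were then averaged. A probe was kept if at least 4 of the 16 arrays had a detection p no higher than 0.05. Symbols came from the platform annotation: 23978 probes have 1, 1719 none, and 23962 were matched by Entrez ID. A single limma model with 4 group means gave 7 contrasts (4 residual and 2.74 prior degrees of freedom), with two-sided p-values, Benjamini-Hochberg adjustment over all probes and a threshold of 0.05. The procedure was tested on simulated data. Arrays of a pool correlated at 0.990 or more. Mean beads per probe were 36.0 to 38.9 on WT and 39.4 to 40.7 on Fgf21-KO arrays, so an array batch that goes with genotype cannot be told apart from it. The number of pools limits the precision.

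Every probe of the 9 genes is reported, the brightest leading. Of the other listed genes, those past the threshold were to be named, or else the 3 of smallest p per comparison among probes detected on all arrays, and for Lpl and Angptl4 the 5 most alike genes. Genes and lists were chosen with earlier results of these data known. Alternatives varied background, scaling, source of values, filter, repeats, variance model, groups fitted, replicate number, probe and pools.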

Additional observations from a re-analysis of the deposited data

How the results depend on the processing

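Of the 8 lead probes in the 7 comparisons, none passed the threshold under any alternative other than leaving out WT rosiglitazone replicate 2, where Lmf1 passed in 3. The count of all probes past the threshold, 3 for genotype averaged and 0 elsewhere, moved more. With a normexp offset of 50 it was 1 for rosiglitazone in WT, 2 for genotype under vehicle, 5 for genotype under rosiglitazone and 13 for genotype averaged. With no background correction it was 2 for rosiglitazone in WT, 3 for genotype under vehicle, 1 for genotype under rosiglitazone and 6 for genotype averaged. With the authors' normalized values it was 2 for rosiglitazone in WT, 3 for genotype under vehicle, 1 for genotype under rosiglitazone and 6 for genotype averaged. With probes detected on all 16 arrays it was 1 for rosiglitazone in WT, 2 for genotype under vehicle, 1 for genotype under rosiglitazone and 9 for genotype averaged. With no probe filter it was 5 for genotype averaged. With trend and robust variance it was 2 for rosiglitazone in WT, 3 for genotype under vehicle, 13 for genotype under rosiglitazone and 40 for genotype averaged. With median scaling it was 1 for rosiglitazone in WT, 57 for genotype under rosiglitazone and 26 for genotype averaged. With all 16 arrays with the pool as a random block it was 61 for rosiglitazone in WT, 13 for rosiglitazone in Fgf21-KO, 41 for genotype under vehicle, 654 for genotype under rosiglitazone, 22 for the interaction, 20 for rosiglitazone averaged and 536 for genotype averaged. With only the 2 groups compared it was 2 for genotype under rosiglitazone. The filter, variance and random-block alternatives leave the member differences unchanged, so no sign could turn under them. Signs of member differences were kept under the background and source alternatives. They turned with median scaling, which moved the median of all probes to 0.039 for rosiglitazone in WT, -0.076 for rosiglitazone in Fgf21-KO, -0.17 for genotype under rosiglitazone and -0.11 for the interaction and genotype averaged: for rosiglitazone in WT Apoe 0.021, for rosiglitazone in Fgf21-KO Lmf1 -0.025 and Lrp1 -0.018, for genotype under rosiglitazone Gpihbp1 -0.092, Angptl4 -0.053 and Vldlr -0.16, for the interaction Lpl -0.070, Vldlr -0.040 and Lrp1 -0.088, for genotype averaged Apoc1 -0.15 and Vldlr -0.14. Taken relative to that median, 9 of these 11 had the sign of the main values, and Apoc1 at -0.034 and Vldlr at -0.026 did not. With the first array of each pool they turned for rosiglitazone in WT Gpihbp1 -0.0090, Angptl4 -0.071 and Lrp1 -0.022, for rosiglitazone in Fgf21-KO Lpl 0.053, Lmf1 -0.17 and Lrp1 -0.17, for genotype under vehicle Lpl -0.062 and Lmf1 0.076, for the interaction Angptl4 0.016 and Lrp1 -0.15, for rosiglitazone averaged Lpl 0.022 and Lrp1 -0.095, for genotype averaged Lpl -0.031 and Apoc1 -0.027. Probe ILMN_1218264 in place of the lead turned Vldlr for rosiglitazone in WT -0.029, for genotype under vehicle 0.14. Probe ILMN_1230923 in place of the lead turned Vldlr for rosiglitazone in WT -0.72, for rosiglitazone averaged -0.14. Probe ILMN_2458671 in place of the lead turned Vldlr for rosiglitazone in WT -1.07, for rosiglitazone averaged -0.45. Probe ILMN_2515601 in place of the lead turned Vldlr for rosiglitazone in WT -0.063, for genotype under vehicle 0.11. Leaving out both pools that stand apart, an alternative chosen after seeing the data, gave 15 for genotype averaged and turned for rosiglitazone in WT Angptl4 -0.10 and Lrp1 -0.026, for rosiglitazone in Fgf21-KO Apoe 0.036 and Lrp1 -0.11, for genotype under vehicle Apoc1 -0.25 and Vldlr 0.019, for genotype under rosiglitazone Apoc1 0.057, for the interaction Lmf1 0.0091, Angptl4 0.069, Apoe 0.13, Apoc1 0.31 and Lrp1 -0.079, for rosiglitazone averaged Lrp1 -0.066, for genotype averaged Apoc1 -0.099. The cause of these turns was not tested.

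Leaving out each pool in turn, the count of probes ranged from 0 to 2697 for rosiglitazone in WT, 0 to 3393 for genotype under rosiglitazone, 0 to 1698 for the interaction, 0 to 1833 for rosiglitazone averaged and 0 to 2749 for genotype averaged, each highest without WT rosiglitazone replicate 2, and the count of member genes from 0 to 1 for rosiglitazone in WT, 0 to 1 for genotype under rosiglitazone and 0 to 1 for rosiglitazone averaged. Differences that turned ranged, for rosiglitazone in WT, from -0.022 to 0.37 (Gpihbp1), from -0.10 to 0.26 (Angptl4), from -0.098 to 0.056 (Apoe), from -0.0012 to 0.14 (Vldlr) and from -0.24 to 0.38 (Lrp1). Turns for rosiglitazone in Fgf21-KO ranged from -0.0074 to 6.5e-05 (Lpl), from -0.21 to 0.015 (Angptl4), from -0.32 to 0.036 (Apoe) and from -0.11 to 0.26 (Lrp1). Turns for genotype under vehicle ranged from -0.053 to 0.035 (Lmf1), from -0.25 to 0.47 (Apoc1), from -0.097 to 0.041 (Vldlr) and from -0.58 to 0.039 (Lrp1). Turns for genotype under rosiglitazone ranged from -0.074 to 0.29 (Angptl4), from -0.23 to 0.057 (Apoc1) and from -0.0056 to 0.13 (Vldlr). Turns for the interaction ranged from -0.36 to 0.0058 (Angptl4), from -0.30 to 0.058 (Apoe), from -0.56 to 0.17 (Apoc1) and from -0.30 to 0.32 (Lrp1). Turns for rosiglitazone averaged ranged from -0.099 to 0.083 (Angptl4), from -0.17 to 0.0077 (Apoe) and from -0.083 to 0.23 (Lrp1). Turns for genotype averaged ranged from -0.14 to 0.057 (Gpihbp1), from -0.17 to 0.19 (Apoc1) and from -0.019 to 0.050 (Vldlr). 

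Groups share replicate numbers, but the deviations of same-numbered pools correlated at only -0.10 to 0.27 between groups over 13759 probes, so the numbers were not taken as pairs. With the replicate number as a block, 0 probes passed for genotype averaged and no member call changed. Signal limits the dim probes of Vldlr and Lrp1, and the top of the signal range limits Lpl.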

Other observations

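Angptl1, a secreted angiopoietin-like protein outside the 9 genes, was singled out after its values were seen. Over both treatments its log2 difference, Fgf21-KO minus WT, was 0.64 (SE 0.11, limma adjusted p = 0.114). The 4 Fgf21-KO pools lay above the 4 WT pools without overlap, as was so for 4.56% of all probes in that direction.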
